A study of Zanthoxylum armatum with 15 samples.

Results

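Cluster-12235.42500 is 1 of the 111318 unigenes assembled from 5 organs of Zanthoxylum armatum, the green Sichuan pepper, and 1 of 3 unigenes that the study named AAS after their best Arabidopsis match, the aromatic aldehyde synthase AtAAS. It was taken by its identifier in all 15 libraries. It had been selected on its values in these same libraries, because it was much higher in fruits (Fr) than in the other organs and lower in mature leaves (ML) than in stems (St). Its levels in fruits and its difference between mature leaves and stems are therefore given as a description, with no test. Tests are given only for the other 5 comparisons between organs that do not involve fruits. All of these except leaf buds against roots reuse stem or mature leaf libraries, whose difference was part of the selection. Their p-values are therefore not independent of that choice.

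The organs were fruits, stems, leaf buds (LB), mature leaves and roots (Ro), each with 3 biological replicates that mixed material from 3 plants, all labelled as sampled in May 2019. The plants were 3-year-old trees of a single variety, 'Hanyuan putaoqing', and the paper states that the fruits were then at full size. Other fruit stages are not covered by these libraries. No treatment or mutant was involved, and whether an organ's pools came from the same plants as those of another organ is not stated. Estimated fragment counts per library summed to between 18802274 and 24081708. Values are given as FPKM, the fragments of a unigene scaled by its length and by the library's total, or as estimated counts where they are few.

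Aromatic aldehyde synthases belong to the same enzyme family as the decarboxylases of tryptophan, tyrosine and DOPA, and share their pyridoxal phosphate cofactor. A decarboxylase removes carbon dioxide from an aromatic amino acid and leaves an amine, such as tryptamine, the entry to indole alkaloids. An aldehyde synthase removes the amino group as well and leaves an aldehyde, such as phenylacetaldehyde, which is a scent and flavour volatile in many flowers and fruits. The annotation of the unigene holds both sides of this family: its Arabidopsis name is that of the aldehyde synthase, whereas its KEGG entry is that of the decarboxylase, which places it in the indole alkaloid, phenylalanine and tyrosine maps. Which reaction the protein carries out was not measured.

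The only sequences of the unigene at hand were the primers that the study designed for the 3 AAS unigenes, and they are printed to identify the sequences that the study chose to measure each of them. Each is written 5′ to 3′.
Cluster-12235.42500 forward: tgctggcagtgcatgtatttgt
Cluster-12235.42500 reverse: cgggtcagtactcagagctttgac
Cluster-12235.53539 forward: tttgaggcactggttgcagaaga
Cluster-12235.53539 reverse: ttcacagcaccaagcagtttacg
Cluster-12235.45347 forward: tgtttccgatttaacccgtttc
Cluster-12235.45347 reverse: ctgttgagttgacccagtccagta
The primers of Cluster-12235.42500 were 22 and 24 bases long with 45.5% and 54.2% G and C. The longest run of bases that either of them shared with a primer of the other 2 unigenes was 6 bases. The counts of the 3 unigenes are uncertain where their sequences are alike, because the counting could have divided fragments between closely similar unigenes.

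Cluster-12235.42500 was a fruit transcript with a trace in stems and leaf buds. Its FPKM was 192.75, 145.67 and 145.83 in the fruit libraries, with a mean of 161 ± 27.1 (SD, n = 3). The stem libraries had 0.91, 1.62 and 1.17 FPKM, the leaf bud libraries 0.93, 0.31 and 0.03, the mature leaf libraries 0.03, 0 and 0.12, and the root libraries 0, 0 and 0.07. Every fruit library was above every other library, and no fruit library came near the highest of them, the second stem library. In the fruit libraries the unigene held 0.0292%, 0.0219% and 0.0217% of all counts and ranked 570, 802 and 812 of all unigenes by FPKM. The fruit value of replicate 1 was the highest of the 3.

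**Figure D1:**
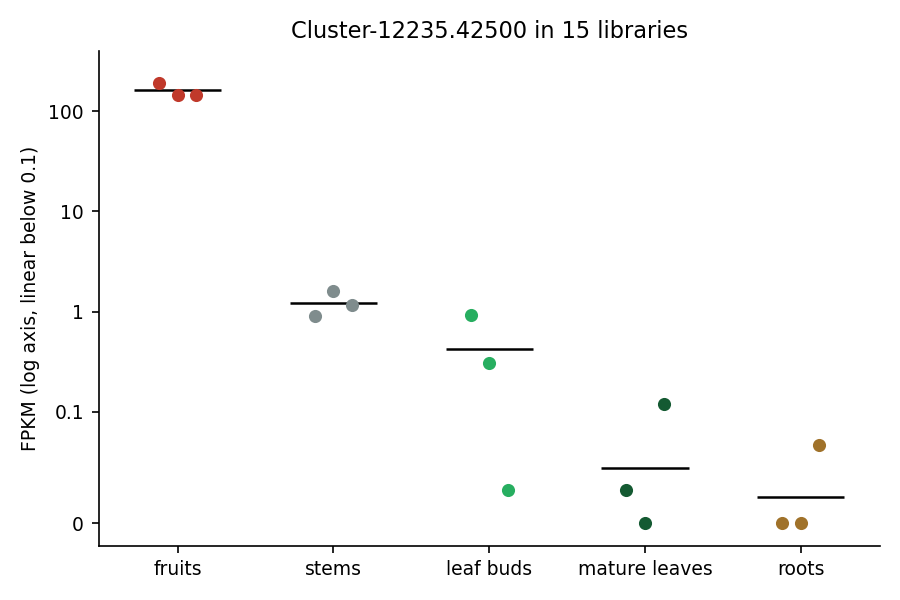
FPKM of Cluster-12235.42500 in each of the 15 libraries (points, 3 per organ) with the organ mean (line), on a log axis that is linear below 0.1. The 3 fruit libraries lie between 145.67 and 192.75, and all other libraries lie between 0 and 1.62.

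The mean levels outside fruits were 1.23 ± 0.36 FPKM in stems, 0.42 ± 0.46 in leaf buds, 0.05 ± 0.062 in mature leaves and 0.023 ± 0.040 in roots (SD, n = 3 each). They rest on few fragments. The summed counts of the 3 libraries came to 15496 for fruits, 124 for stems, 45 for leaf buds, 5 for mature leaves and 2 for roots. After normalisation for library size and composition, the summed count in fruits was 157 times that in stems, with an exact 95% Poisson interval from 131 to 189. It was 474 times that in leaf buds (354 to 650), 2795 times that in mature leaves (1198 to 8610) and 8965 times that in roots (2481 to 74033). The last of these ratios has a wide interval because the roots gave 2 counts, both in replicate 3. Such intervals cover counting error only and not the spread between replicates. The fitted log2 difference was 7.31 ± 0.33 (SE) for fruits against stems, 8.90 ± 0.37 against leaf buds, 11.39 ± 0.48 against mature leaves and 12.90 ± 0.52 against roots, where the last 2 depend on the prior count that the fit adds. These values show how the unigene was picked.

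Between the other organs, the means fell in the order stems, leaf buds, mature leaves and roots, of which the last 2 could not be told apart. Stems were higher than roots by 5.59 ± 0.90 on the log2 scale (adjusted p = 2.24e-05, edgeR quasi-likelihood test with Benjamini-Hochberg adjustment over 57488 unigenes). All 3 stem libraries, with 29, 56 and 39 counts, were above all 3 root libraries, with 0, 0 and 2 counts. The ratio of the summed counts was 57.2, with a counting interval from 15.5 to 477. A unigene was called when the adjusted p was below 0.05 and the log2 fold change exceeded 1 in size, and 35.3% of all unigenes tested were called between stems and roots in either direction. Leaf buds were also higher than roots, by 4.0 ± 1.15 (adjusted p = 0.00493, same edgeR test), where 41.4% of all unigenes were called. On the 6 libraries of leaf buds and roots alone, the unigene did not pass the filter on low counts. It entered this test through other organs, and the spread was estimated over all 15 libraries. The ratio of summed counts was 18.9, with a counting interval from 4.94 to 161. The leaf bud libraries had 33, 11 and 1 counts, so that the groups overlapped and the third leaf bud library lay within the range of the roots. Without replicate 1 of leaf buds the call was lost (adjusted p = 0.0679 in edgeR, log2 fold change 2.62), and without replicate 3 of roots, which held both root counts, the difference was 6.65.

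The difference between stems and leaf buds was 1.58 ± 0.48 on the log2 scale (adjusted p = 0.0128, edgeR), with 18.7% of all unigenes called in this comparison. The lowest stem library, at 0.91 FPKM, lay just below the highest leaf bud library, at 0.93 FPKM, so the groups overlapped. The call was lost with DESeq2 (adjusted p = 0.177) and without replicate 2 of stems (adjusted p = 0.0686 in edgeR), whereas without replicate 1 of leaf buds the difference was 2.89. Leaf buds were above mature leaves by 2.49 ± 0.98 (adjusted p = 0.0393, edgeR), with 33.7% of all unigenes called. On the 6 libraries of leaf buds and mature leaves alone, the unigene did not pass the filter on low counts. The mature leaf libraries had 0.81, 0 and 4 estimated counts, and the groups overlapped. This call was lost without replicate 1 of leaf buds (adjusted p = 0.368 in edgeR) and without replicate 1 or 2 of mature leaves (adjusted p = 0.105 and 0.137 in edgeR), and without replicate 3 of mature leaves the difference was 4.03. Mature leaves and roots could not be told apart at this depth, with 5 and 2 counts and a ratio of 3.21 (0.525 to 33.7). The fitted difference was 1.51 ± 1.83 (adjusted p = 0.506, edgeR), and it was -0.021 without replicate 3 of mature leaves and 4.16 without replicate 3 of roots (adjusted p = 1 and 0.259, edgeR). Of all unigenes, 39.9% were called between these organs. Here too the unigene did not pass the filter on the 6 libraries of these organs alone. Mature leaves against stems, 1 of the comparisons on which the unigene was selected, gave a fitted log2 difference of -4.07 ± 0.79, with 5 counts in mature leaves and 124 in stems, and 33.9% of all unigenes were called between these organs.

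Relative to their mean, the leaf bud libraries differed from one another more than the fruit or the stem libraries. The summed FPKM of 20 photosynthesis antenna protein unigenes, which mark green tissue, was 6503, 8995 and 6996 in leaf bud replicates 1, 2 and 3. It was between 10062 and 11721 in fruits, 9611 and 10361 in stems and 27128 and 27688 in mature leaves, against 17.5 to 27.4 in roots. The marker list was held only in part, and in each library between 0 and 6 of the 20 unigenes were at 0. The lowest leaf bud library for Cluster-12235.42500 was thus not the lowest for these markers. Fewer cells that carry the transcript and less transcript per cell cannot be told apart in such bulk libraries.

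The other 2 AAS unigenes were also selected by the study for their fruit levels, so their fruit values are a description too. Cluster-12235.53539 was at 32.51, 36.57 and 30.44 FPKM in the fruit libraries, 0.97, 1.1 and 1 in those of stems, 1.38, 1.36 and 1.45 in those of leaf buds, 0.31, 0.39 and 0.22 in mature leaves, and 0, 0 and 0.04 in roots. Cluster-12235.45347 was at 20.38, 3.49 and 3.09 FPKM in fruits and at 0.33 FPKM or less in every other library. Fruit replicate 1 alone carried most of its reads, with 595 estimated counts there, 126 in replicate 2 and 100 in replicate 3. That library was also the highest for Cluster-12235.42500, but not for Cluster-12235.53539. Within a fruit library, Cluster-12235.42500 stood 5.93, 3.98 and 4.79 times above Cluster-12235.53539 by FPKM, and 9.46, 41.7 and 47.2 times above Cluster-12235.45347. The lead of Cluster-12235.42500 over both was seen in every fruit library.

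**Figure D2:**
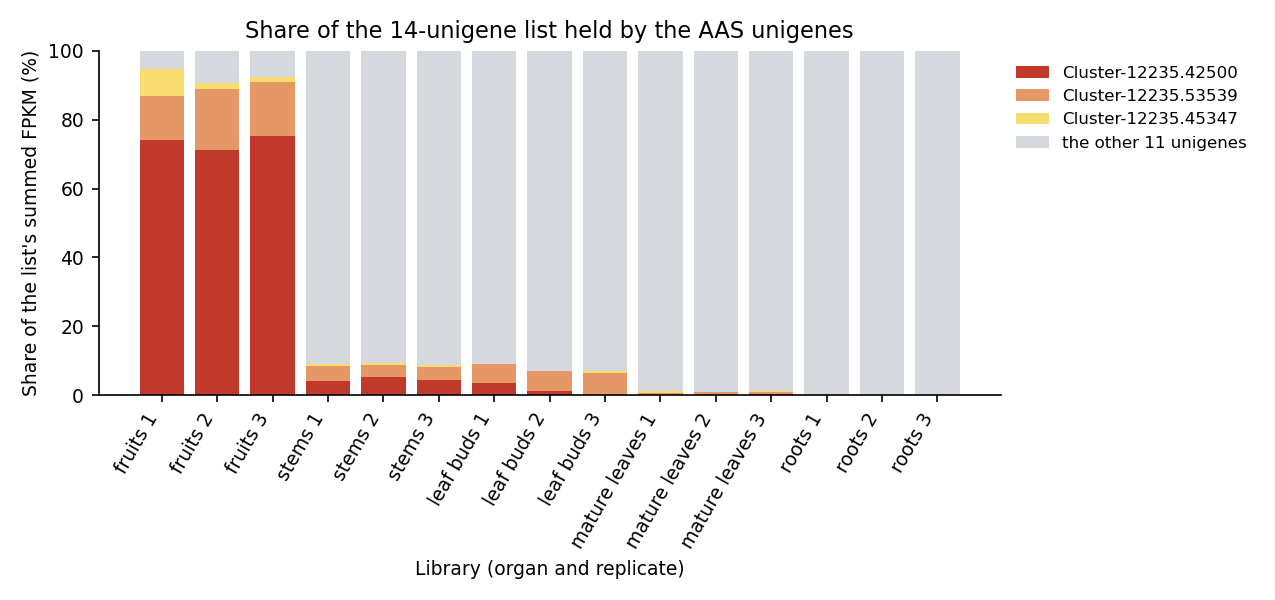
Share of the summed FPKM of the 14 unigenes of the indole alkaloid biosynthesis list held by each AAS unigene and by the other 11, in each library (stacked bars, percent). Cluster-12235.42500 holds 71.1% to 75.2% in the fruit libraries and at most 5.15% in any other library.

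Outside fruits the relation between Cluster-12235.42500 and Cluster-12235.53539 was different. In stems they were near each other, with ratios of 0.938, 1.47 and 1.17 by FPKM. In leaf buds Cluster-12235.42500 was the lower, with ratios of 0.674, 0.228 and 0.0207. On the scale log2((count + 0.5)/(count + 0.5)), the ratio averaged 0.27 ± 0.32 in stems and -2.50 ± 2.26 in leaf buds (SD, n = 3 each), a difference of 2.78, or 1.55 without replicate 3 of leaf buds. All 3 stem libraries were above all 3 leaf bud libraries. An exact two-sided permutation test gave p = 0.1, which is the smallest p that 3 libraries against 3 can give, so this design cannot pass 0.05. Cluster-12235.53539 itself did not pass the test between stems and leaf buds, at -0.37 ± 0.19 on the log2 scale (adjusted p = 0.151, edgeR). It was higher in leaf buds than in mature leaves by 1.70 ± 0.25 (adjusted p = 6.25e-06, edgeR) and lower in mature leaves than in stems by 1.33 on the log2 scale (-1.33 ± 0.26, adjusted p = 0.000199, edgeR). Cluster-12235.45347 passed the test in none of the 6 comparisons between the other organs, with 0 called by edgeR, 0 by DESeq2 and 0 at an unadjusted p under 0.05. It had 6 to 19 counts summed over the 3 libraries of an organ and entered the test through its fruit counts. Calls of 0 on so few counts do not show that these organs were equal. The largest ratio of summed counts between these organs was that of stems over leaf buds, 3.47 with a counting interval from 1.33 to 10.6, and its fitted difference was 1.72 ± 1.41 on the log2 scale (adjusted p = 0.376, edgeR).

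**Figure D3:**
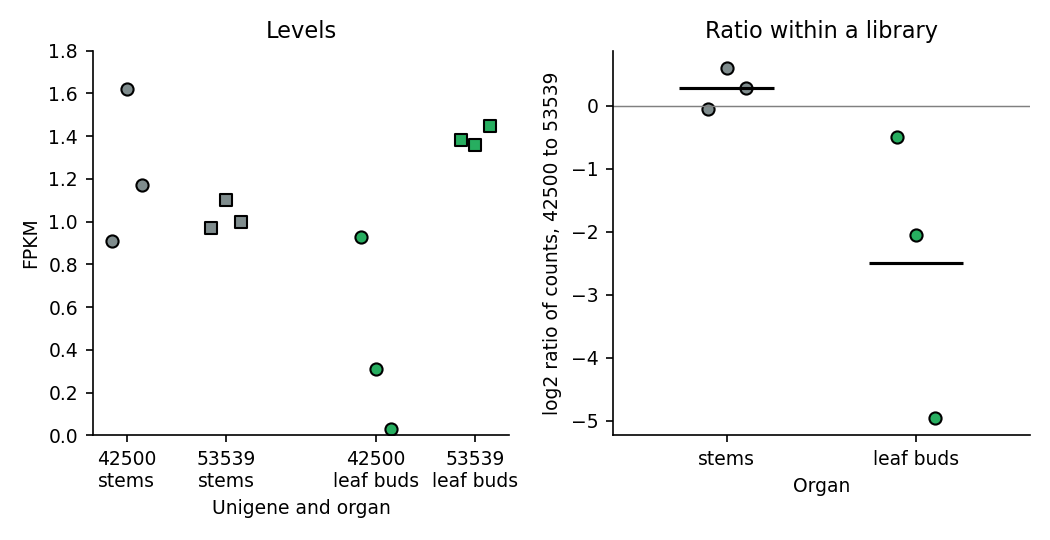
Left, FPKM of Cluster-12235.42500 (circles) and Cluster-12235.53539 (squares) in the 3 stem and the 3 leaf bud libraries. Right, the log2 ratio of their counts within each library with the organ mean (line), which averages 0.27 in stems and -2.50 in leaf buds.

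The KEGG indole alkaloid biosynthesis list held 14 unigenes, of which 11 passed the filter on low counts and were tested. Cluster-12235.42500 made up 74.2%, 71.1% and 75.2% of the list's summed FPKM in the fruit libraries, a mean of 73.5% ± 2.12 (SD, n = 3). The 3 AAS unigenes together made up 94.6%, 90.7% and 92.5%. In stems Cluster-12235.42500 made up 4.05%, 5.15% and 4.44%, in leaf buds 3.61%, 1.30% and 0.129%, and in the mature leaf and root libraries at most 0.303%. The list as a whole was as high in roots as in fruits, at 219 ± 35.3 FPKM in fruits and 229 ± 16.0 FPKM in roots (SD, n = 3 each), and between 22.5 and 43.7 FPKM in the libraries of the other organs. It was carried by other unigenes there. In each root library Cluster-12235.9280 led, with 41.2%, 43.0% and 45.0% of the list's FPKM, and in each stem, leaf bud and mature leaf library Cluster-12235.48704 led.

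The other 11 unigenes of the list carried no enzyme name in the sources at hand and did not share the fruit pattern. The AAS unigenes were set apart because the study had selected and named them as higher in fruits. That choice partly fixed this contrast. Of the 11, a group of 5 was highest in roots by a wide margin. Cluster-12235.9280 had 93.42 to 106.04 FPKM in the root libraries, Cluster-12235.75767 had 45.89 to 55.55, Cluster-12235.77340 had 38.64 to 43.54, Cluster-12235.2933 had 19.92 to 21.99 and Cluster-12235.2697 had 3.98 to 6.56. In fruits each of the 5 had 2.40 FPKM or less in every library. Cluster-12235.69630 and Cluster-12235.69631 were highest in mature leaves, at 10.3 ± 0.80 and 8.66 ± 0.51 FPKM (SD, n = 3). Cluster-12235.48704 was the flattest of those tested, with 9.10 to 9.59 FPKM in fruits and 7.78 to 15 FPKM in the other organs. Cluster-6455.0, Cluster-797.0 and Cluster-178.0 had 8 counts or fewer in any organ and were not tested.

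**Figure D4:**
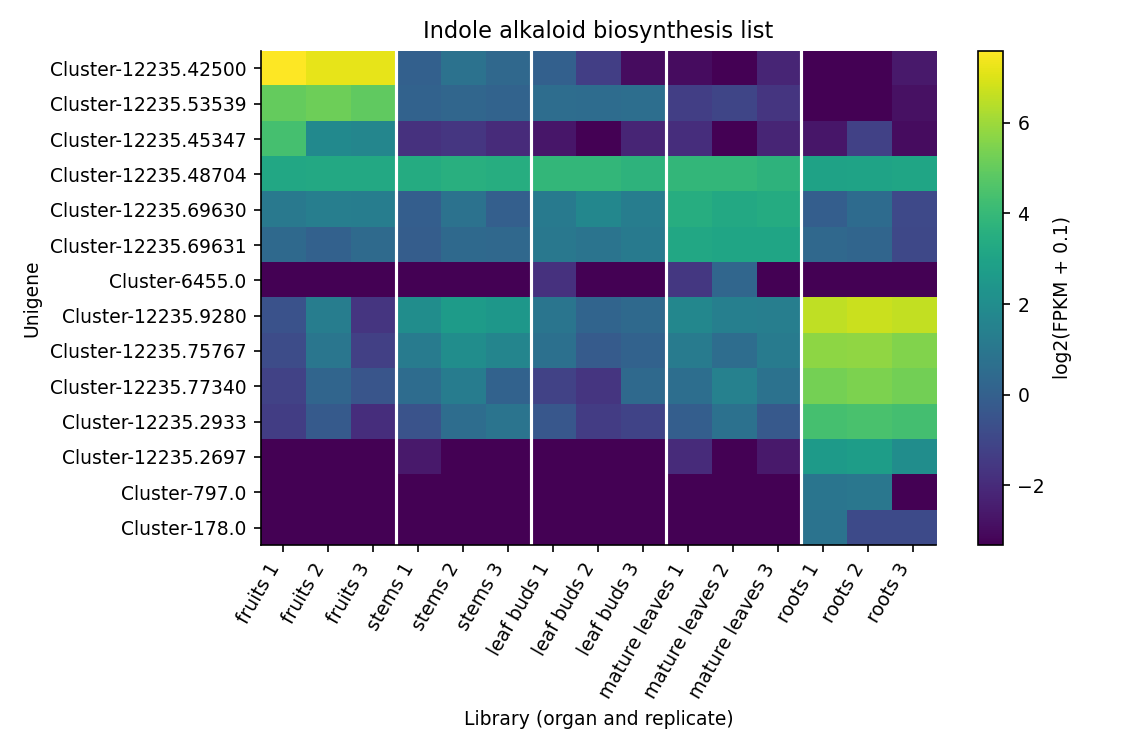
log2(FPKM + 0.1) of the 14 unigenes of the indole alkaloid biosynthesis list (rows, ordered by the organ of the highest mean) in the 15 libraries (columns). The 3 AAS unigenes are high in fruits, 5 unigenes with 3.98 FPKM or more in every root library are high in roots, and Cluster-12235.48704 is near even.

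Of these 11, 8 were tested against fruits. The study's selection of the AAS unigenes for their fruit levels had already taken fruit-high unigenes out of this set. Between fruits and roots, 1 was called higher and 5 lower, where 17.7% of all unigenes tested were called higher and 16.2% lower. The 5 that were lower in fruits were the root group, with log2 fold changes from -9.22 to -5.36. The median of the 8 was -5.42, and that of all unigenes tested was 0. Cluster-12235.69630 was higher in fruits than in roots, by 1.70 ± 0.32 (adjusted p = 0.000145, edgeR). Against stems, 1 was called higher and 3 lower, where 11.9% of all unigenes were called higher and 10.6% lower. The median of the 8 was -1.07, and that of all unigenes 0.027. Cluster-12235.2697, counted among the 8, had 0 counts in fruits and 1 in stems, and entered the test through its root libraries. Cluster-12235.69630 was again the one called higher, by 1.31 ± 0.30 (adjusted p = 0.00156, edgeR). Those called lower were Cluster-12235.9280, Cluster-12235.75767 and Cluster-12235.2933. The last had 4.41, 13.26 and 2.78 estimated counts in fruits and 9.48, 23.99 and 28.95 in stems (adjusted p = 0.0392, edgeR). The number called in either direction was 3 with only the 6 libraries compared.

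Against leaf buds, edgeR called 0 of the 8 in either direction, where 13.9% of all unigenes were called higher and 15.1% lower. DESeq2 also called 0, and 1 had an unadjusted p under 0.05. Cluster-12235.2697 had 0 counts in every fruit and leaf bud library and passed the filter on low counts through its root libraries. It therefore could not be called in this comparison. The lowest adjusted p of the 8 by edgeR was 0.0577, of Cluster-12235.48704, and the median was 0.091, against -0.050 for all unigenes. Leaving out replicate 2 of fruits or replicate 3 of leaf buds gave 1 call in this comparison. Against mature leaves, the fitted difference was negative for all 8, and 6 were called lower by edgeR and by DESeq2. Of all unigenes, 12.2% were called higher and 14% lower. For Cluster-12235.2697, not among those called, the difference rests on 0 counts in fruits and 2, 0 and 1 in mature leaves. Its fit was -3.47 ± 1.64 (adjusted p = 0.104, edgeR), and it again entered through its root libraries. The median of the 8 was -1.52, against -0.058 for all unigenes. The most negative of the 6 called was Cluster-12235.69631, by -3.05 ± 0.23 (adjusted p = 6.87e-10, edgeR). The count was 3 without replicate 1 of fruits and 3 without replicate 3 of fruits. Fruit replicate 2 had the highest fruit value of 4 of the 5 root-group unigenes. Its value of Cluster-12235.9280 was 2.40 FPKM, with 0.58 in replicate 1 and 0.22 in replicate 3, and its value of Cluster-12235.75767 was 1.84 FPKM, with 0.48 and 0.32. The part of that library in these counts was not tested otherwise.

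Between the other organs, the list without Cluster-12235.42500 had 13 unigenes, of which 10 were tested. Cluster-12235.2697, among the 10, had at most 3 summed counts in any organ but roots. Stems against roots gave 1 higher and 5 lower, where 35.3% of all unigenes were called in either direction, and the median of the 10 was -1.88, against 0 for all unigenes. Stems against leaf buds gave 4 higher and 1 lower, where 18.7% were called, with a median of 1.5, against -0.077. Leaf buds gave 3 higher and 5 lower against roots (41.4% called, median -3.44, against 0.049) and 1 higher and 6 lower against mature leaves (33.7% called, median -1.61, against -0.0024). Mature leaves gave 4 higher and 5 lower against roots (39.9% called, median -2.01, against 0). Against stems they gave 2 higher and 1 lower of 10, near the 33.9% called among all unigenes (median 0.45, against 0.080). Cluster-12235.53539, the second AAS unigene, was among those called higher in all 3 comparisons with roots. There its log2 fold change was 6.05 ± 0.48 for stems (adjusted p = 1.29e-09, edgeR), 6.42 ± 0.45 for leaf buds (adjusted p = 1.39e-10) and 4.72 ± 0.63 for mature leaves (adjusted p = 1.75e-06). These fits rest on 1 count in the roots, and the ratios of summed counts were 91.3 (16.0 to 3641) for stems, 118 (20.8 to 4684) for leaf buds and 35.9 (5.94 to 1469) for mature leaves. In mature leaves Cluster-12235.53539 had 9, 12 and 7 counts, mostly below the filter's minimum of 10, and entered that test through other organs. The count between mature leaves and roots was 8 with only the 6 libraries compared. The 4 called higher in stems than in leaf buds were all from the root group. The count between stems and leaf buds was 3 without replicate 3 of stems and 2 without replicate 2 of leaf buds.

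The study also placed Cluster-12235.42500 in the phenylalanine and tyrosine metabolism maps among unigenes that it selected as higher in fruits. The 2 rows held 14 different unigenes, and apart from the 3 AAS unigenes all 11 had their highest mean in fruits, which the selection itself fixed. They differed in how far fruits stood above the next organ. For Cluster-12235.42500 the fruit mean was 121 times the next organ mean, that of stems, on the scale of FPKM + 0.1. It was 22.2 times for Cluster-12235.53539 and 31.3 times for Cluster-12235.45347, but the value of Cluster-12235.45347 rests on fruit replicate 1 and was 11.7 times without it. For Cluster-12235.42500 it was 109 times without that library. The other 11 had between 1.73 and 16.0 times, with a median of 3.19.

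Among these 11 were enzymes that use the same amino acids or their products. The 3 tyrosine aminotransferase unigenes (TAT, which converts tyrosine to its keto acid) averaged 47.6 ± 0.82, 19.2 ± 4.11 and 5.01 ± 0.12 FPKM in fruits for Cluster-12235.46039, Cluster-12235.41679 and Cluster-12235.15041 (SD, n = 3). Their next highest organ was leaf buds or mature leaves. HGD and FAH act further down tyrosine breakdown, on homogentisate and on fumarylacetoacetate. They were broadly expressed, at 52.2 ± 2.05 FPKM in fruits and 16.4 to 22.0 FPKM in the other organ means for HGD (Cluster-12235.43142), and at 96.1 ± 21.3 FPKM in fruits and 20.9 to 33.2 in the other organ means for FAH (Cluster-12235.39013). The alcohol dehydrogenase Cluster-12235.39626, matched to AtADH1, was at 78.4 ± 7.79 FPKM in fruits, 7.16 ± 0.91 in roots, and under 1 FPKM on average in the other 3 organs.

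The phenylpropanoid side was carried by 4-coumarate-CoA ligase (4CL, which activates cinnamic acids) and by a caffeoyl-CoA O-methyltransferase, an enzyme of lignin precursor synthesis. Of the 3 4CL unigenes, Cluster-12235.40838 was at 58.4, 26.3 and 34.69 FPKM in fruits and 2.39 ± 0.44 in leaf buds, the next organ. Cluster-12235.50635 was at 63.4 ± 4.60 FPKM in fruits and 29.7 ± 4.71 in leaf buds, and Cluster-12235.48731 was at 4.63 ± 1.19 in fruits and 2.63 ± 0.80 in leaf buds. The methyltransferase Cluster-12235.38094 was the most abundant of the 14, with 609 ± 93.3 FPKM in fruits and 45.6 ± 7.61 in roots. The last of the 14, Cluster-12235.36730, named for a 3-hydroxyacyl-CoA dehydrogenase of bacteria (paaH), had 45.2 ± 6.15 FPKM in fruits and 21.9 ± 1.41 in roots. Fruit replicate 1 had the highest fruit value of 9 of the 14 unigenes, Cluster-12235.42500 among them, replicate 2 of 3 and replicate 3 of 2.

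**Figure D5:**
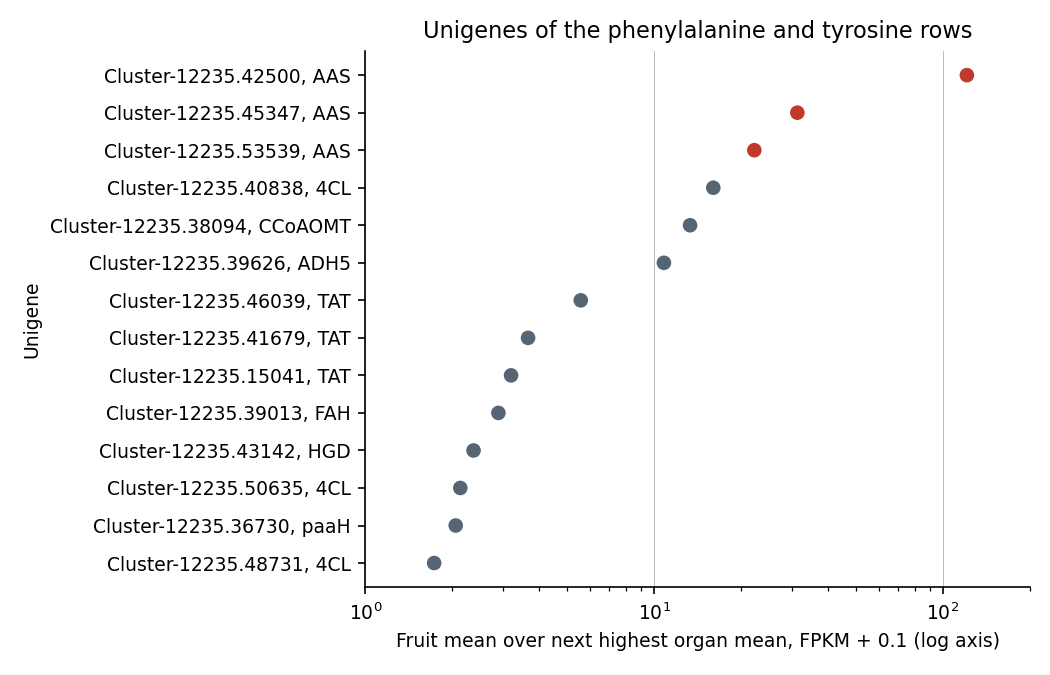
Fruit mean divided by the next highest organ mean (FPKM + 0.1, log axis) for the 14 unigenes of the phenylalanine and tyrosine metabolism rows, with the 3 AAS unigenes in red. Cluster-12235.42500 is at 121, and the 11 unigenes that are not AAS lie between 1.73 and 16.0.

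Set beside all unigenes tested, 4500 had their highest mean in fruits, with a median of 1.32 times the next organ. Of these 4500, 1.02% stood further above the next organ than Cluster-12235.42500 did. Its selection on its fruit values partly fixed this place. Of the terpenoid, fatty acid and related unigenes that the study listed as higher in fruits, 74 were tested, the AAS unigenes included, and 1 of them stood further above the next organ. It was the terpene synthase unigene Cluster-12235.42010 (matched to AtTPS03), at 132 times. Cluster-12235.40340, which the paper annotates as the geranylgeranyl diphosphate synthase GGPPS12, was level with Cluster-12235.42500, at 120.8 times against 121.1. Both were named here after their values were seen. The median of the 74 was 3.01 times.

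The unigenes whose pattern was most like that of Cluster-12235.42500 were found by Pearson's r over the 15 libraries on log2(CPM + 1), among 57487 other unigenes. The libraries of an organ share that organ, so the 15 points are not independent, and r is given as a description. Of these unigenes, 351 had an r over 0.95 and 8 had an r over 0.99. The 3 nearest were Cluster-12235.41001 (r = 0.995), Cluster-12235.13330 (r = 0.993) and Cluster-12235.44259 (r = 0.993), none of which was named in the sources at hand. Which unigenes came nearest depended on the measure: of the 8 named here and in the next paragraph, the same rule named 1 again with Spearman's rho and 4 with a pseudocount of 0.1 CPM. Cluster-12235.41001 was at 735.71, 580.19 and 520.47 FPKM in the fruit libraries, with means of 2.19 ± 0.13 in stems, 0.80 ± 0.44 in leaf buds, 0.057 ± 0.098 in mature leaves and 0.030 ± 0.052 in roots. Its means in fruits, stems and leaf buds thus fell in the same order as those of Cluster-12235.42500, at a higher level. Mature leaves and roots were near the floor for both unigenes, so their order is not shown. The leaf bud values of Cluster-12235.41001 were 0.87, 0.32 and 1.2 FPKM, and replicate 3, the lowest library for Cluster-12235.42500, was the highest for it.

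Among the unigenes that the study listed as higher in fruits, the 5 nearest came from different pathways. They were Cluster-12235.36948 (AtKAS2, a ketoacyl-ACP synthase of fatty acid elongation, r = 0.987), the AAS unigene Cluster-12235.53539 (r = 0.980), Cluster-12235.44062 (AtMFP2, a multifunctional protein of beta-oxidation, r = 0.980), Cluster-12235.38538 (AtDXS, the first enzyme of the plastid isoprenoid pathway, r = 0.979) and Cluster-12235.54676 (AtGGPPS2, a prenyl diphosphate synthase, r = 0.975). A high r did not mean a like degree of restriction. Cluster-12235.36948 was at 100 ± 6.18 FPKM in fruits and 33.6 to 49.9 FPKM in the other organ means, whereas Cluster-12235.38538 was at 209 ± 32.05 in fruits and 1.26 to 5.51 in the others. The third AAS unigene had an r of 0.925, and the 8 tested unigenes of the indole alkaloid list that were not named AAS had r between -0.46 and -0.074. Those 8 were what the study's selection for fruit levels left, which partly fixed their low r.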

How the data were processed

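RNA-seq libraries of 5 organs with 3 replicates each were used, grouped by the labels. The authors made paired-end Illumina reads (base calling with CASAVA 1.8 per the labels), assembled them with Trinity and deposited per unigene an estimated count, not always a whole number, and an FPKM. The aligner and counter are not given in the sources used here. Between 11.7% and 15.3% of the estimated counts of a library were not whole, and they were rounded. All 15 libraries entered 1 fit in edgeR 4.0.16 (R 4.3.3) with TMM normalisation, filterByExpr (minimum count 10, minimum total 15) and the quasi-likelihood F test, and p-values were adjusted by Benjamini-Hochberg over 57488 unigenes. SEs were derived from the F statistic. FPKM was not corrected for library composition (TMM factors 0.813 to 1.18), whereas ratios of summed counts used TMM-scaled totals. With few reads the intervals, at a level of 0.95, cover counting error only. Lists and primers came from supplementary tables. P-values measure the spread between pools of 3 plants.

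The unigene and the lists were chosen with earlier results of these data known. The unigenes named are the AAS unigene, the rest of the indole alkaloid list, the unigenes of the phenylalanine and tyrosine rows, and those nearest in pattern, 3 among all tested and 5 among the study's fruit list. Cluster-12235.42010 and Cluster-12235.40340 fall outside this rule. No replicate was identical to another, and no pair of replicates agreed within sampling noise. The edgeR fit was tested on simulated data, with changes placed only in fruits and only in unigenes with higher counts. That simulation does not cover the tests on few counts between the other organs. Alternatives were DESeq2 1.42.0 (size factors and Wald test), no normalisation factors, no filter, a minimum of 1 CPM in at least 3 libraries, a replicate block, a fit of the 6 libraries compared alone, leaving out 1 library at a time (15 fits) and a fold threshold of 2 on the log2 scale. Python 3.11.15, scipy 1.17.1 and matplotlib 3.10.9 were used.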

Additional observations from a re-analysis of the deposited data

How the results depend on the processing

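The call of Cluster-12235.42500 between stems and roots held in all 23 alternatives, with log2 fold changes from 5.05 to 8.25. The other calls rest on few counts. With only the 6 libraries compared, the unigene did not pass the low-count filter for leaf buds against roots or mature leaves, nor for mature leaves against roots, so these have no value. Stems against leaf buds missed the threshold with DESeq2 (1.63) and with an absolute log2 fold change over 2 (1.58), and ranged from 1.07 to 2.89 over all alternatives. When 1 library was left out, leaf buds against roots ranged from 2.62 to 6.65, leaf buds against mature leaves from 1.18 to 4.03, and stems against leaf buds spanned the whole range above. The number of list unigenes called at an absolute log2 fold change over 2 was 0 for fruits against stems, 2 for fruits against mature leaves, 1 for stems against leaf buds and 3 for leaf buds against mature leaves. Leaving out 1 library gave 3 to 4 for fruits against stems and 0 to 1 for fruits against leaf buds. It gave 3 to 6 for fruits against mature leaves and 2 to 5 for stems against leaf buds. Of the 8 unigenes named for their likeness, 1 was named again with Spearman's rho and 4 with a pseudocount of 0.1 CPM. The fruit mean FPKM and the share of the list moved by less than 1 SD in all 4 alternatives of each. Without normalisation factors the median log2 fold change of all unigenes was between -0.43 and 0.45 in these comparisons. Samples with the same replicate number did not deviate together (mean r -0.0033 over 30 pairs, against 0.0018 over 60 pairs with other numbers). These values cannot show whether same-numbered pools came from the same plants. The fit with a replicate block (stems against roots 5.62) changed none of the 97 tested calls of the indole alkaloid list, this unigene included.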
